A study of Mus musculus with 12 samples.

Results

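The clustered protocadherins are adhesion proteins of the cadherin superfamily whose genes lie side by side on chromosome 18, in an alpha, a beta and a gamma cluster. Members were the peaks assigned by the authors' annotation to a gene named Pcdha, Pcdhb or Pcdhg, with or without a subfamily letter, followed by a number. The rule found 52 of the 15332 genes with an m6A peak in either group. It took 159 of the 27292 peaks listed for the OVA group, on 49 genes, and 144 of the 26102 peaks listed for the PBS group, on 52 genes. RefSeq lists 58 such genes, of which 14 are alpha, 22 beta and 22 gamma genes.

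Female BALB/c mice aged 6 to 8 weeks were compared. The OVA group was sensitised on days 0 and 7 with ovalbumin in aluminium hydroxide and challenged with a 3% ovalbumin aerosol for 30 min daily from day 14 to day 20. The PBS group received phosphate-buffered saline in its place, and whole lungs were taken on day 21. Lung RNA of 3 mice per group gave an immunoprecipitated (IP) library, enriched with an antibody to N6-methyladenosine (m6A), and an input library without that enrichment. An m6A peak is a stretch of RNA with more reads in IP than in input, and its fold enrichment is that ratio. The log10 p of a peak, which is lower for stronger evidence, was also the caller's own. Each group had 1 peak list and no values of single mice, so no difference between the lists has a replicate check, and fold enrichments carry no interval. The depth behind each peak is unknown here.

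In neurons, clustered protocadherins give single cells distinct surface identities through binding between like molecules on neighbouring membranes. Each alpha and gamma gene supplies its own large variable exon, which is spliced to constant exons shared by its whole cluster, while most beta genes are made of a single coding exon. The variable exon encodes the extracellular cadherin repeats and the membrane span, and the constant exons encode a shared cytoplasmic tail. Because variable exons are alike in sequence and gene models overlap, reads can be split between genes, and the assignment of a peak to 1 gene is uncertain.

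m6A peaks were present throughout the beta and gamma clusters in both groups and sparse in the alpha cluster. All 22 beta and all 22 gamma genes had a peak in each list, while 5 of 14 alpha genes did so for OVA and 8 for PBS. Of the 52 genes with a peak in either list, 49 had 1 in both (94.2%), beside 80.6% of all such genes. Pcdha6, Pcdha7 and Pcdha9 had a peak in the PBS list only, and no member gene had a peak in the OVA list only. Of all 15332 genes with a peak in either list, 1214 were in the PBS list only and 1768 in the OVA list only. Of the OVA peaks, 150 of 159 overlapped a PBS peak by at least 1 exonic base. This share was 94.3% (95% Wilson interval 89.6 to 97.0, covering counting error only), beside 80.6% for all OVA peaks. The intervals take peaks as independent, although merging overlapping member peaks left 133 in the OVA list, with a share of 93.2%. Of the PBS peaks, 123 of 144 overlapped an OVA peak, or 85.4% (78.7 to 90.3), which is near the 85.5% of all PBS peaks. Limited to a fold enrichment of at least 2 in both lists, the OVA share was 83.7%, beside 80.5% of all, as this leaves out every PBS peak of the last exon that the alpha genes share. Without that exon it was 92.1% at this limit and 93.8% with no limit. When the common bases had to make up 50% or more of each peak, the shares were 74.2% for OVA and 75% for PBS, beside 68.6% and 71.7% of all.

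These genes carried many peaks each. At least 3 peaks were found on 33 of 49 genes in the OVA list (67.3%) and on 27 of 52 in the PBS list (51.9%), while the shares over all genes were 23.0% and 22.7%. A single peak was listed for 3 and 4 member genes. The median fold enrichment of member peaks was 8.67 for OVA and 9.02 for PBS, and the medians over all peaks were 5.59 and 5.44. Without the last exon shared by the alpha genes the member medians were 10.3 and 9.545, so which list was higher depended on this exon, while both stayed above all peaks. The annotation gives each peak 1 region label, however many bases the peak spans. The 3' UTR label was given to 29 of 159 OVA peaks (18.2%, 13.0 to 25.0) and 20 of 144 PBS peaks (13.9%, 9.17 to 20.5). It was given to 52.7% of all peaks in each list. The label of other exon sequence was given to 100 (62.9%) and 98 (68.1%), against 35.7% and 35.9%. The remaining 30 (18.9%) and 26 (18.1%) peaks were annotated to the 5' UTR, against 11.6% and 11.4%. Long peaks can carry a UTR label, such as an OVA peak of Pcdhb9 over 2337 bases (3' UTR), so these shares do not locate the bases. The map shows fold enrichment along the clusters.

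**Figure D1:**
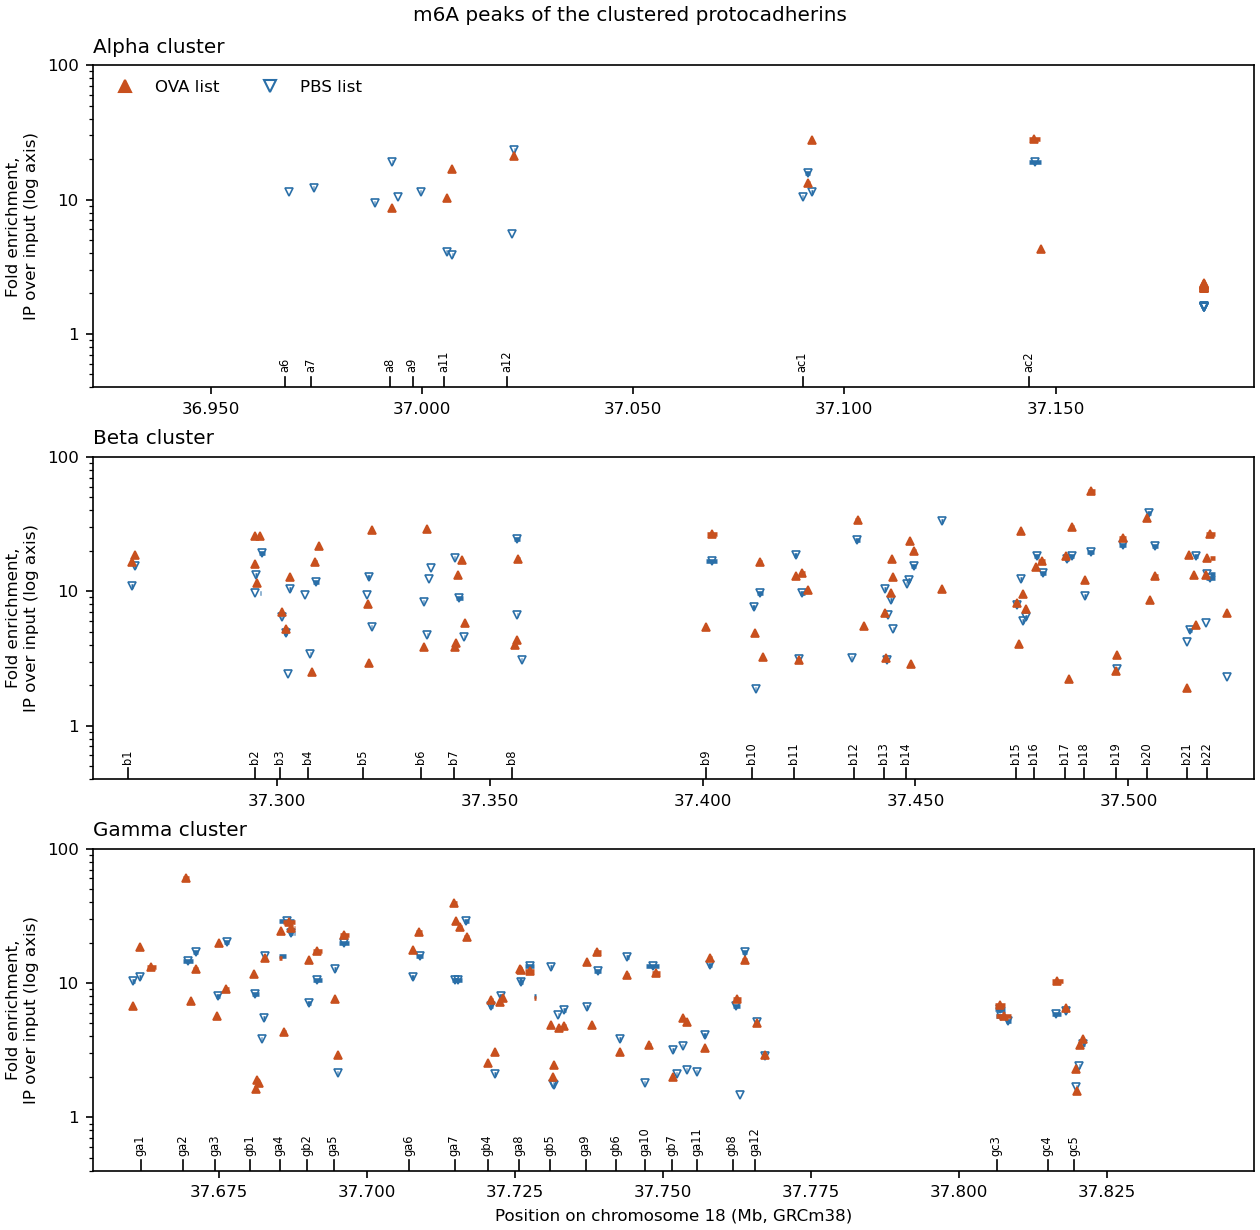
Fold enrichment (IP over input, log axis) of each m6A peak of the clustered protocadherins against its position on chromosome 18 (Mb, GRCm38). Filled upward triangles are the 159 peaks of the OVA list and open downward triangles the 144 peaks of the PBS list, bars under them give the exonic bases, and ticks mark the RefSeq gene starts with the Pcdh prefix left out; peaks fill the beta and gamma clusters in both lists, while the alpha cluster has few.

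In the alpha cluster, peaks outside the shared last exon were few, and those of the PBS list were mostly short and weak by p. There were 8 such OVA peaks and 14 such PBS peaks, with median log10 p of -7.53 and -3.81, beside -8.94 and -13.25 in beta genes. Their median widths were 286 and 181 exonic bases, beside 390 and 478.5. Their median fold enrichments, 15.1 and 11.35, were not below those of beta genes, 12.7 and 9.72. Pcdha6 had 1 PBS peak of 61 bases (chr18:36968590-36968650) with a fold enrichment of 11.4 and a log10 p of -3.07. The PBS peak of Pcdha7 (chr18:36974282-36974551, 270 bases) had a fold enrichment of 12.3 and a log10 p of -4.20. Pcdha9 had a PBS peak of 150 bases (chr18:36999670-36999819) with a fold enrichment of 11.4 and a log10 p of -3.07. These PBS-only genes thus rested on 1 peak each, all with an FDR under 0.05 but, by p, among the weaker peaks of the clusters. Pcdha8 had 1 OVA peak with a fold enrichment of 8.73 and 3 PBS peaks with a highest value of 19.2. Pcdha12 reached 21 for OVA and 23.2 for PBS. The peak of Pcdha11 at chr18:37007089-37007328 was listed with the same bounds for both groups, at a fold enrichment of 16.9 for OVA and 3.87 for PBS. Its log10 p was -7.26 for OVA and -6.01 for PBS.

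Pcdhac1 and Pcdhac2, the C-type members of the alpha cluster, had longer peaks. Pcdhac2 had an OVA peak over 2541 bases of its variable exon (chr18:37143712-37146252) with a fold enrichment of 28.2 and a log10 p of -239. In the PBS list a peak of 2870 exonic bases began at the same position, with a fold enrichment of 19.1 and a log10 p of -615. It included a block of 51 bases at chr18:37156155-37156205, which the OVA list gave as part of a separate peak with a fold enrichment of 4.29. Pcdhac1 reached 27.7 for OVA and 15.8 for PBS. The highest fold enrichment was in the OVA list for both C-type genes, while the lowest log10 p was in the PBS list.

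The last exon of the alpha cluster, which all alpha transcripts share, was listed several times under different gene models. The OVA list held 14 overlapping peaks there, called on 14 alpha gene identifiers and all assigned to Pcdhac2, within 236 bases (covered length). The PBS list held 8, within 186 bases. Fold enrichments ran from 2.18 to 2.38 in the OVA list and from 1.59 to 1.62 in the PBS list, and so did not overlap. Since these peaks cover the same bases, they are 1 site and not independent measurements. They also bear on the region shares, as 13 of the 14 OVA peaks but 1 of the 8 PBS peaks were annotated to the 3' UTR. Without this exon, 11.0% of OVA (16 of 145) and 14% of PBS member peaks (19 of 136) were annotated to the 3' UTR, so the order of the lists turned.

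Fold enrichments were typically higher in the beta cluster than in the gamma cluster. The 71 OVA peaks of beta genes had a median of 12.7 (range 1.91 to 55.4) and the 64 PBS peaks a median of 9.72 (1.86 to 38.5), beside 7.58 over 66 OVA peaks and 6.74 over 58 PBS peaks of gamma genes. Pcdhb18 had the highest value of the cluster in the OVA list, 55.4 for a peak of 1582 bases (chr18:37490449-37492030) annotated to the 3' UTR. The overlapping PBS peak (chr18:37490360-37492000) had a fold enrichment of 19.7. The log10 p of this pair was -37.0 for OVA and -39.0 for PBS, so the higher ratio did not have the lower p. Pcdhb20 stood high in both, with 35.4 in the OVA list (chr18:37504264-37504653) and 38.5 in the PBS list, where the peak extended over 1047 bases from the same start. Pcdhb12 reached 34.1 for OVA and 24.2 for PBS over nearly the same bases. Pcdhb14 showed the opposite order in a downstream 3' UTR peak with identical bounds (chr18:37456020-37456350), 10.4 for OVA and 33.6 for PBS. Pcdhb8 was also higher in the PBS list, with 24.4 over 1251 bases against 17.5 over 1012 bases.

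Some peaks that were broken up in the OVA list were joined in the PBS list. Of the PBS member peaks, 29 of 144 (20.1%) overlapped at least 2 OVA peaks called on the same identifier, beside 4.29% of all PBS peaks, and the reverse held for 15 of 159 OVA member peaks (9.43%), beside 5.29%. Among beta genes, Pcdhb7 had 5 OVA peaks and 3 PBS peaks, of which 1 spanned 1586 bases (chr18:37342121-37343706) where the OVA list had separate peaks. Pcdhb9 had OVA peaks of 151 and 2337 bases and a single PBS peak of 2546 bases. Pcdhb13 had 5 peaks in each list, and Pcdhb22 also had 5 in each. More peaks were listed for 9 beta genes in the OVA list and for 2 in the PBS list, and 11 had the same number. The covered length was nonetheless larger in the PBS list for 18 of 22 beta genes, and summed to 36114 bases for OVA and 40200 for PBS, while over all peaks it was larger for OVA (11807433 bases) than for PBS (11078910). The PBS list thus covered more bases of most beta genes, mostly with the same number of peaks or fewer. These counts of genes were not made over all genes, so they have no background here.

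**Figure D2:**
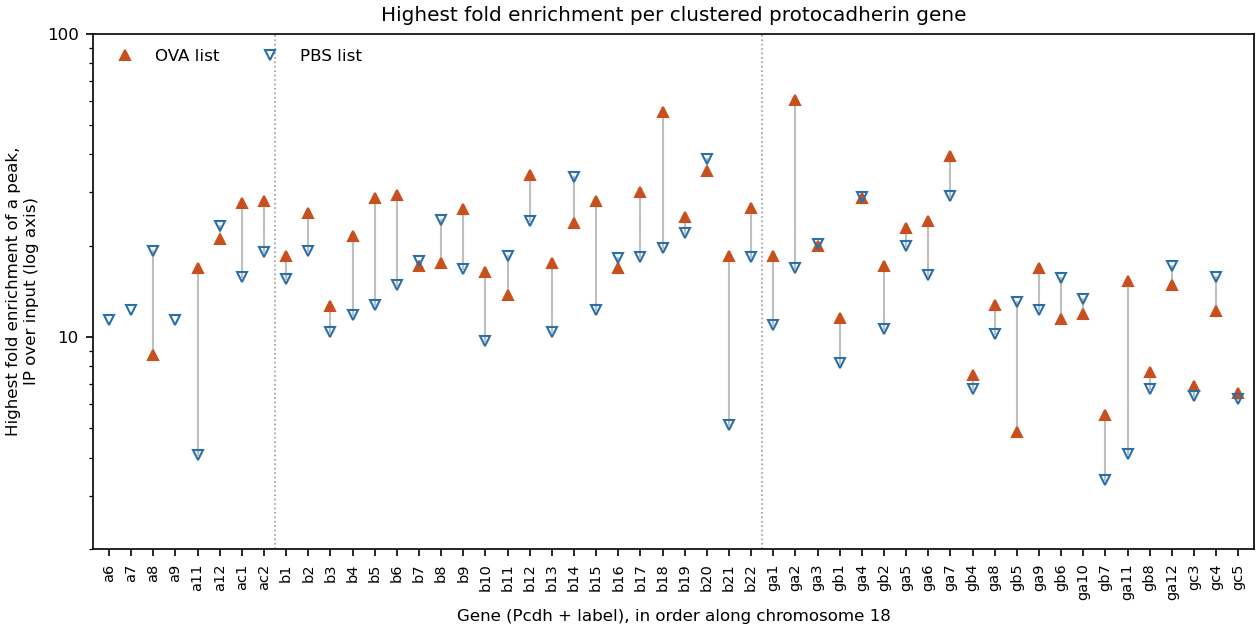
Highest fold enrichment (IP over input, log axis) of any peak assigned to each of the 52 genes, in order along chromosome 18, with dotted lines between the alpha, beta and gamma clusters. Filled upward triangles are the OVA list and open downward triangles the PBS list, and grey lines join the values of a gene. The highest value was in the OVA list for 34 of the 49 genes with a peak in both. This count was not made over all genes, but 61.4% of all matched pairs were higher in the OVA list. Of the 49 genes, 20 had more OVA peaks and 9 more PBS peaks to take the highest from.

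In the gamma cluster, the A subfamily had higher fold enrichments than the B and C subfamilies in both lists. The median over peaks of the 12 A genes was 13.8 for OVA and 10.8 for PBS. It was 4.69 and 5.47 for the 7 B genes, and 5.01 and 5.84 for the 3 C genes. A fold enrichment of at least 10 was reached by 12 of 12 A genes in the OVA list and by 11 in the PBS list, while 3 of 7 B genes and 1 of 3 C genes did so in each list. These counts depend on which gene a peak is given to. By the gene model used for calling, 11 A genes for OVA and 10 for PBS reached this value, 4 and 5 B genes, and 2 and 0 C genes. The medians were then 12.7 and 12.3 for A, 4.88 and 5.80 for B, and 4.76 and 5.33 for C, so the A subfamily was highest by either rule. Pcdhgb8, which RefSeq lists as a pseudogene, had 1 assigned OVA peak with a fold enrichment of 7.66 and 2 PBS peaks, the higher at 6.74. A further peak called on Pcdhgb8 (chr18:37763419-37764258), at 14.8 for OVA and 17.1 for PBS, was assigned to Pcdhga12, whose own called peaks reached 7.11 and 5.70.

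Pcdhga2 had the highest fold enrichment of all members, 60.6 for an OVA peak at chr18:37668983-37669879, annotated to the 5' UTR, with a log10 p of -19.6. The PBS peak from the same start was longer, 1554 bases, with a fold enrichment of 14.7 and a log10 p of -124. The higher ratio of this gene thus came with the weaker evidence. Within the gamma cluster, Pcdhga7 followed with 39.5 in the OVA list, for a peak called on the overlapping gene model Gm37165 (chr18:37714309-37715234). Its highest PBS peak (chr18:37716353-37717192) had a fold enrichment of 29.2 and a log10 p listed as minus infinity. Pcdhga4 was similar in the lists, at 28.7 and 29.0, and its PBS peak ran over 2543 bases (chr18:37685210-37687752) where the OVA list had a break. Pcdhga5 had 1 long peak with the lowest OVA log10 p of the clusters, -863 at a fold enrichment of 22.9, and in the PBS list -1450 at 19.9. Pcdhgb5 and Pcdhgc5 had the most assigned OVA peaks of the gamma genes, 5 each, with highest fold enrichments of 4.88 and 6.53 in the OVA list and 13.1 and 6.23 in the PBS list. By calling, Pcdhgb1 had the most, 6. The values of Pcdhgc5 came from a peak called on Pcdhgc4, and peaks called on Pcdhgc5 itself reached 10.4 for OVA and 5.46 for PBS. Among the C genes, Pcdhgc3 combined a modest ratio with strong evidence, with an OVA peak of 2511 bases (chr18:37806364-37808874) at a fold enrichment of 5.70 and a log10 p of -787.

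Unlike the shared exon of the alpha cluster, the constant exons of the gamma cluster carried no peak of their own. Downstream of the variable exon of Pcdhgc5, from chr18:37823547 to the end of the cluster at chr18:37841873, neither list had a peak that lay wholly in this stretch. The edge of the constant region was reached only by blocks of 21 to 26 bases from chr18:37825021, at the end of peaks that began in variable exons. These were called on Pcdhgb1 and Pcdhga8 in both lists and on Pcdhga11 in the PBS list, and the annotation assigned all of them to Pcdhgc4. Pcdhgc4 therefore had 3 OVA and 4 PBS peaks, of which 1 in each list was called on Pcdhgc4 itself, with fold enrichments of 10.3 and 5.84.

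Matched peaks were then compared between the lists. A pair consisted of an OVA and a PBS peak called on the same gene identifier that overlapped each other most, which gave 116 member pairs among 21097 pairs in all. The log10 p was lower in the PBS list for 84 of 116 member pairs (72.4%), beside 40.3% of all pairs. By cluster the counts were 4 of 14 in alpha, 40 of 51 in beta and 40 of 51 in gamma, and 84 of 108 without the shared alpha exon. The PBS peak was the wider for 67 of 116 member pairs (57.8%), beside 32.5% of all pairs, and the median exonic width was 423 bases for OVA and 539.5 for PBS. Over all pairs these medians were 391 and 389. By cluster the PBS peak was the wider in 35 of 51 beta and 30 of 51 gamma pairs. Beta and gamma genes thus mostly had the wider peak and the lower p in the PBS list, while over all pairs both were more often found in the OVA list. Neighbouring members share a locus and similar sequence and are not independent of each other.

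Fold enrichments did not follow that order. They were higher in the OVA list for 79 of 116 member pairs (68.1%), beside 61.4% of all pairs. The median log2 ratio of OVA over PBS was 0.30 for members and 0.13 for all pairs. The shared alpha exon supplied 8 of the 79 pairs, and without it the count was 71 of 108 (65.7%) and the median 0.19, both nearer to those of all pairs. The fold enrichment was at least 2 times higher in the OVA list for 19 member pairs (16.4%), beside 7.74% of all, and at least 2 times higher in the PBS list for 9 (7.76%), beside 4.98%. Differences of this size were thus listed in both directions, and no normalisation between the lists was applied. Among the former were 1 pair of Pcdhb6 (OVA peak chr18:37335288-37335527), with 29.3 against 4.72, and 1 of Pcdhb5 (chr18:37322148-37322418), with 28.8 against 5.43. Among the latter were 1 pair of Pcdhb7 (chr18:37341792-37341941), with 3.85 against 17.8, and 1 of Pcdhgb5 (chr18:37731039-37731278), with 4.88 against 13.1. These are values of single peaks, since each of these genes also had a pair in the opposite order, such as 3.85 for OVA and 8.39 for PBS in Pcdhb6. Across the 49 genes with peaks in both lists, the rank correlation (Spearman) of the highest fold enrichment was 0.60 and that of the lowest log10 p was 0.97, a description over genes of 1 list per group. By cluster, the correlation of fold enrichment was -0.1 in alpha (5 genes), 0.40 in beta and 0.71 in gamma. That of log10 p was 1 in alpha, 0.94 in beta and 0.92 in gamma. The order of the genes by p was therefore more alike between the lists than their order by ratio. The p of a peak depends on its read number as well as on its ratio, and RNA abundance was not analysed here. Neither the number of cells of a type nor the RNA per cell was analysed, and whole lung does not separate them.

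The peaks of 1 list without an overlap in the other were small, as they were over the whole lists. The 9 such OVA peaks had a median of 121 exonic bases and a median log10 p of -2.70, and the 21 PBS peaks had 121 bases and -3.39. Over all unshared peaks the median was also 121 bases in each list, with median log10 p of -4.20 for OVA and -3.58 for PBS. The shared member peaks had medians of 390 and 537 bases, and all shared peaks 390 and 361. The strongest of the unshared peaks lay in Pcdhgb1, in the PBS list (chr18:37682477-37682776), with a fold enrichment of 5.47 and a log10 p of -24.2. No OVA peak covered these bases.

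Along the beta and gamma genes, coverage was lower in the window at the gene start than in any window from 250 to 2500 bases. The share of bases covered by peaks called on a gene was taken in windows of 250 bases from the gene start, over 3000 bases. In beta genes it was highest between 1500 and 1750 bases, at 86.0% for OVA and 88.8% for PBS, against 46.3% and 48.7% in the window at the start. In gamma genes it was highest between 2000 and 2250 bases, at 80.1% and 81.9%, against 46.2% and 49.4% at the start. Windows past 2500 bases reach beyond the end of some genes and variable exons (the shortest beta gene has 2340 bases), so their low coverage is not read as a pattern of m6A. The PBS list covered more bases in 12 of 12 windows of beta genes and in 11 of 12 of gamma genes. Such windows were not taken over all genes.

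**Figure D3:**
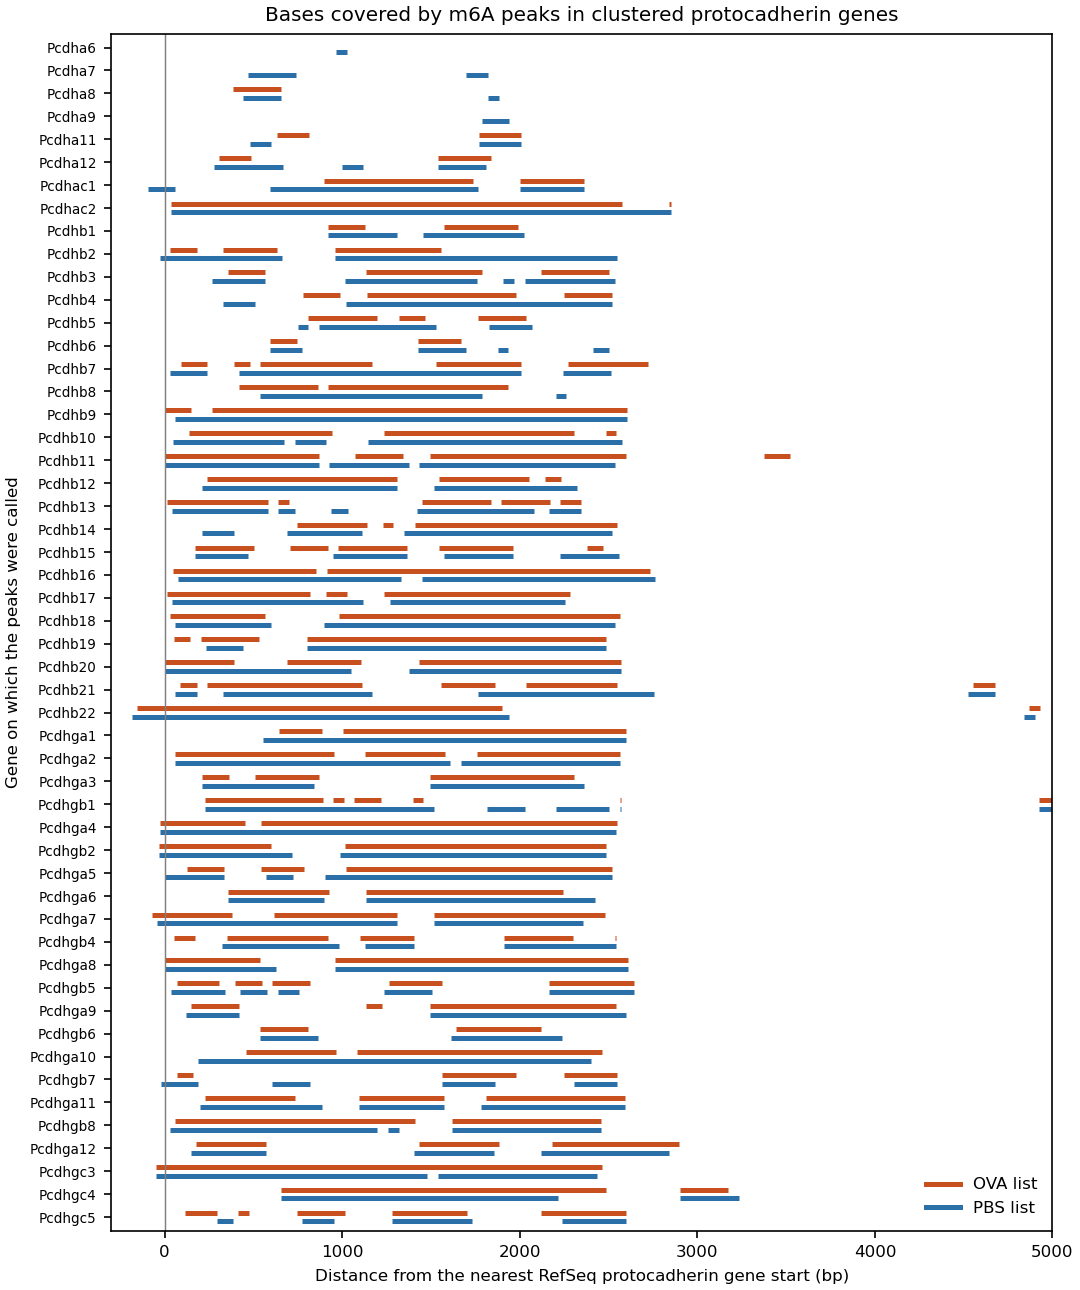
Bases covered by m6A peaks called on each of the clustered protocadherin genes, by distance in bp from the nearest RefSeq protocadherin gene start. Upper bars of a row are the OVA list and lower bars the PBS list, drawn up to 5000 bp; most stretches lie within the variable exon, and several that are broken in the OVA list, such as those of Pcdhb9 and Pcdhga10, are joined in the PBS list.

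Some of these peaks cannot be given to a single gene. The lists also hold antisense gene models. The library protocol removed a second strand marked with dUTP and so keeps the strand of the RNA, but whether peak calling used it is not given in the sources used here, and if it did not, a gene and its antisense partner cannot be told apart. In the OVA list the peak of Pcdhb12 with a fold enrichment of 34.1 shared 1061 bases with a peak called on the antisense gene Gm37446, at 38.5. The PBS peak of Pcdhga10 at 13.4 shared 2202 bases with a peak called on Gm26672, at 13.1. For Pcdhga1, 2 peaks in each list, and all of its PBS peaks, were called on the upstream gene model 3222401L13Rik, while a PBS peak called on Pcdhga1 itself (chr18:37662332-37664371, fold enrichment 7.72) was assigned to the antisense gene Gm37118. The gene named Pcdha11 in the lists starts at chr18:37005203, closest to the RefSeq start of Pcdha10 at chr18:37005320, so its values may belong to the gene that RefSeq names Pcdha10. When peaks were counted on the gene model used for calling, 57 members had an OVA peak and 56 a PBS peak, Pcdha2 was the only gene of 1 list alone, and the peaks of Pcdha1 to Pcdha5 were those of the shared last exon.

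Related adhesion genes elsewhere in the genome also carried peaks, counted here by the assigned gene unless calling is named. Of 12 non-clustered protocadherins, 7 had a peak in each list and 6 in both. Pcdh19 had the highest fold enrichment in both lists (28.8 for OVA and 46.9 for PBS), followed by Pcdh17 (20.1 and 19.8), with Pcdh18 next in the OVA list (19.9) and also in the PBS list (15.3). Pcdh15 had peaks in the OVA list only, 2 with a highest value of 15.4, and Pcdh9 in the PBS list only, 4 with a highest value of 13.8. Among matched pairs of these genes the log10 p was lower in the PBS list for 19 of 27, and the PBS peak was the wider for 11 of 27. Of the 9 giant cadherins, which act in planar polarity and tissue growth, 9 had an OVA peak and 8 a PBS peak. Of their 51 pairs, 26 were lower in p in the PBS list and 14 had the wider peak there. Fat2 (64.7), Fat3 (45.6) and Fat4 (29.2) were highest in the OVA list, and Fat2 (31.6), Fat4 (25.0) and Celsr2 (23.3) in the PBS list. Celsr3 had peaks in the OVA list only, 2 with a highest value of 12.8. Of 7 further cadherins, which are classical ones and the membrane-anchored Cdh13, 3 had an assigned OVA peak and 2 a PBS peak. Cdh11 (20.3 and 24.4) and Cdh4 (17.3 and 15.6) had assigned peaks in both lists, and Cdh13 (9.24) for OVA. By the gene model used for calling, however, 6 of the 7 had a peak in both lists, Cdh13 among them, and Cdh2 in neither.

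Most of the listed genes that act on these clusters or their products had peaks in both groups. Dnmt3b and Cyfip1 had none in either list, by assigned or by called gene. CTCF and cohesin join distant enhancers to the promoters of single variable exons, and 11 of 13 genes of promoter choice and locus architecture had a peak in both lists (12 by the gene model used for calling). Wapl (15.6), Nipbl (14.2) and Smchd1 (12.1) were highest in the OVA list, and Nipbl (18.4), Wapl (13.8) and Smchd1 (8.39) in the PBS list. Ctcf itself had 1 peak in each, at 7.26 and 5.60. Of 12 partners of the cytoplasmic domain, among them kinases and WAVE complex subunits, 9 had a peak in each list and in both (11 by calling). Ptk2 (35.1), Nckap1 (18) and Ptk2b (15.9) were highest in the OVA list, and Ptk2 (27.3), Ptk2b (19.5) and Cyfip2 (15.6) in the PBS list. The log10 p was lower in the PBS list for 8 of 23 pairs of the architecture genes and for 3 of 14 pairs of the partners, which did not show the order of the beta and gamma genes.

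On chromosome 18, genes near the clusters can be read beside them. Of 14 neighbours, 10 had an OVA peak and 12 a PBS peak, and Hdac3 (2.71) and Rell2 (4.69) had an assigned peak in the PBS list only. By calling, Hdac3 had 1 peak in each list, and of the 14 genes Rell2 alone was limited to 1 list. Taf7, a subunit of the general transcription factor TFIID, had the highest OVA value, 84.2, and 17.5 in the PBS list. Slc25a2 (20.5) and Hars2 (11.4) were next in the OVA list, and Wdr55 (12.8) with Slc25a2 and Hars2 (both 10.6) in the PBS list. Of the matched pairs of these neighbours, 4 of 14 had the lower log10 p in the PBS list, so the order seen in beta and gamma genes was not that of the whole neighbourhood.

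Presence of a peak is no measure of expression, but the lists were checked against genes that mark cell types. Of 10 lung epithelial markers, 9 had a peak in both lists, with none for Sftpc. Assigned peaks in both lists were found for 5 of 6 endothelial markers and 4 of 6 fibroblast markers, and called peaks for 6 and 5. The log10 p was lower in the PBS list for 7 of 11 pairs of endothelial markers (10 of 15 by calling). It was so for 3 of 6 pairs of fibroblast markers (5 of 9) and for 5 of 14 pairs of epithelial markers (5 of 11). By calling, this held for 1 of 4 pairs of neuronal and 0 of 5 pairs of smooth muscle markers. The PBS peak was the wider in 3 of 11 endothelial, 3 of 6 fibroblast and 6 of 14 epithelial pairs, beside 32.5% of all pairs. It was so in 0 of 3 neuronal and 0 of 1 smooth muscle pairs. These pairs were few, and differences between the sets were not tested. Of 8 neuronal markers, Map2 and Elavl3 had an assigned peak in both lists. By calling these were Map2 and Rbfox3, Tubb3 had 1 OVA peak, and Elavl3 had none. Of the smooth muscle markers, Myh11 had the most called peaks, 5 for OVA and 6 for PBS, none of them assigned to it. Des had a peak in both lists, Tagln in the OVA list only (1.27) and Cnn1 in the PBS list only (1.36), by either rule. Of 6 markers of eosinophils and mast cells, Ccr3 alone had a peak, at 13.0 for OVA and 6.17 for PBS. Which lung cells the protocadherin RNA came from was not analysed here.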

How the data were processed

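MeRIP-seq compared 3 IP and 3 input libraries per group. The authors used FASTP for read cleaning, HISAT2 for mapping to the Ensembl mouse genome, exomePeak for peak calling and ChIPseeker for annotation. Tool versions, and how the 3 mice were combined into 1 list, are not given in the sources used here. The deposited fold enrichment is a ratio of IP over input, and the deposited log10 p and log10 FDR are a score of each peak. Starts in the lists count from 0 and were raised by 1. GRCm38 was checked by position, since 97.7% of OVA and 97.8% of PBS peaks called on protein-coding RefSeq genes overlapped them. Peaks were compared by exonic blocks (minimum 1 bp). Shares have 95% Wilson intervals, which take peaks as independent. Members and lists were chosen with earlier results of these data known. Genes described in full were those with peaks in 1 list, the 5 highest fold enrichments per list, and examples with 3 or more peaks; Pcdha11, Pcdha12, Pcdhb9, Pcdhga10 and Pcdhgb8 were added after their values were seen. The windows, matched pairs, subfamilies and counts by called gene were chosen after seeing the data. The code (matplotlib 3.10.9, pandas 2.3.3, scipy 1.17.1, numpy 2.4.6 and Python 3.11.15) was tested on simulated data.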

Additional observations from a re-analysis of the deposited data

How the results depend on the processing

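Of 144 values under alternative settings, 126 stayed within 1.5 times the reported count or within the 95% interval of the reported share or median. With identical start and end required, 10 OVA (6.29%) and 10 PBS (6.94%) member peaks were shared, beside 10.3% and 10.7% of all peaks. Under this setting the member shares lay below those of all peaks. The shared percentage was 74.2% for OVA and 75% for PBS when common bases had to make up 50% or more of each peak, and 83.7% for OVA with a fold enrichment of at least 2; these lie outside the intervals of the reported shares. With peaks counted on the gene model used for calling, 1 gene was found in the OVA list only and 0 in the PBS list only, since the shared alpha exon is then counted for each gene model. The OVA share of 3' UTR peaks was 10.5% with overlapping member peaks merged and 11.0% without the shared alpha exon, an alternative chosen after seeing the data. By construction, both remove repeated listings of that exon. By the gene model used for calling, 5 gamma B genes reached a fold enrichment of 10 for PBS, and 2 gamma C genes for OVA and 0 for PBS; 6 of the 7 further cadherins had a peak in each list and in both, and 2 smooth muscle markers in both. An FDR under 0.05, protein-coding transcripts alone, overlap of genomic spans and overlap with a peak of the same gene gave values within those limits. A count can hide a change of genes: with protein-coding transcripts alone, 43 genes for OVA and 46 for PBS had a peak, not all gamma genes among them, and the 3 PBS-only genes were Pcdha7, Pcdha9 and Pcdhgb5. The alternatives for shares, matched pairs, gamma subfamilies and comparison genes were added after seeing the data. No paired analysis was possible because each list stands for a whole group. The lists give no read numbers, so depth limits weak peaks to an unknown degree.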
